A study of Mus musculus with 30 samples.

Results

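The sperm surface ADAM genes described here are Adam1a, Adam1b, Adam2, Adam3, Adam5, Adam18 and Adam32. They were taken by name, with earlier results of these data known, and all 7 were found among the 65534 rows of the deposited expression table. Polyadenylated RNA was sequenced from germ cells enriched from the testes of male mice, in 30 libraries, to set Prdm9 mutants beside their litter mates as meiosis begins. Prdm9 is the histone methyltransferase that marks the sites of meiotic recombination in mice. At 8 days postpartum (dpp) there were 3 Prdm9 +/+, 2 Prdm9 +/- and 5 Prdm9 -/- libraries, at 12 dpp 1, 4 and 5, and at 16 dpp 2, 3 and 5. Every animal was C57BL/6J with some 129S1/SvImJ background. The labels do not name the mutant allele. Below, mutant means -/-, and non-mutant means +/+ and +/- together, 5 libraries of each at each age. Values are TPM, a share of all transcripts that is scaled to transcript length, so that genes can be compared.

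ADAM proteins are membrane proteins with a metalloprotease-like and a disintegrin domain. The ADAMs of sperm lie on the plasma membrane of the sperm head and are made in spermatocytes and spermatids as precursors that are cleaved later, in the testis or epididymis. ADAM1A and ADAM1B each pair with ADAM2, also called fertilin beta, and ADAM3, also called cyritestin, is the member that sperm need to pass into the oviduct and to bind the zona pellucida. Spermatocytes enter pachytene, the long stage of meiotic prophase with paired chromosomes, late in the second week after birth, and Prdm9 -/- spermatocytes arrest near that stage.

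Adam1a and Adam1b share sequence, which limits what their levels can mean and is shown for that reason. Both lie on chromosome 5 on the minus strand, Adam1b at 121500098 to 121503435 and Adam1a at 121518576 to 121545482 (GRCm38, GENCODE M21). Their single-exon transcripts Adam1a-201 and Adam1b-201 hold an identical run of 1082 bases, all of it coding, at chr5:121519976-121521057 and chr5:121501824-121502905. The lines below give the sense strand at the start of that run and at its end, where a second identical run of 82 bases follows. Capitals mark bases inside a run that the other gene also holds, and lower case marks bases outside the identical runs.
Adam1a-201, start, chr5:121521018-121521097: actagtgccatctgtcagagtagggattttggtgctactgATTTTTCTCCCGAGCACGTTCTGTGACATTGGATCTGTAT
Adam1b-201, start, chr5:121502866-121502945: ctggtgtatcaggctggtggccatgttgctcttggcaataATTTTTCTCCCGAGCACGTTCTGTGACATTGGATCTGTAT
Adam1a-201, end, chr5:121519936-121520015: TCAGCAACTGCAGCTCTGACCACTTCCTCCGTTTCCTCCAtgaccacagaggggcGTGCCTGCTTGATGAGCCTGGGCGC
Adam1b-201, end, chr5:121501784-121501863: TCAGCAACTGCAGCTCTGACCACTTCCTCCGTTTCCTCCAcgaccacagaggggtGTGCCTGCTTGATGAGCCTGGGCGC
Of the 50-base words of Adam1b, 32.4% also occur in Adam1a, so how the authors' quantification divided reads between the 2 genes is uncertain. No 25-base word was shared between any other pair of the 7 genes.

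Adam1a carries a further uncertainty. Its second annotated transcript, Adam1a-202, has 15 exons and shares 1805 exon bases with Mapkapk5 on the same strand and 848 with Tmem116 on the other strand. Both of those genes were expressed, Mapkapk5 at 84.6 ± 9.75 TPM (SD, n = 5) in non-mutants at 16 dpp. Reads of these genes could be counted for Adam1a, and whether read strand was used is not given in the sources used here.

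Promoter sequence was at hand for 2 of the 7 genes. The 250 bases before the RefSeq start of Adam1a (GRCm38.p6) fall inside the GENCODE exon of Adam1a-201 and are not shown. Those before Adam1b, chr5:121503436-121503685 on the minus strand, lie outside its annotated exon. In the line below capitals mark AACNG, the core letters that MYB-family factors bind, which were searched on both strands.
Adam1b, bases before the start: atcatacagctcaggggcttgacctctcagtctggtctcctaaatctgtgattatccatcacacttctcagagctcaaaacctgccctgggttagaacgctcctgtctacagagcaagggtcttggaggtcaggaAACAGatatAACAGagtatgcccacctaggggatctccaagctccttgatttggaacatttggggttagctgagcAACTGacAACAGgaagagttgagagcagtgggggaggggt
AACNG occurred 4 times, all on the sense strand, and 74.2% of the 32851 RefSeq promoter windows of the same length held it at least once. The share of windows with 4 or more matches was not counted. The letters TGACGTCA (1.55% of windows), CCAAT (33.9%) and TATAAA (12.4%) did not occur in this window. Mybl1, which encodes the MYB-family factor of pachytene spermatocytes, was at 31.1 ± 3.41 TPM in non-mutants and 26.6 ± 2.71 TPM in mutants at 16 dpp (SD, n = 5 each), a difference that was not called (limma adjusted p = 0.649).

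Some properties of the libraries touch the results below. At 16 dpp the non-mutant libraries differed widely in pachytene transcripts. The summed level of the 8 pachytene markers ran from 235.9 TPM in +/- replicate 1 to 1375 TPM in +/- replicate 3, against 93.7 to 127 TPM in the mutants. At 12 dpp litter 13 went against its labels: Prdm9 was at 19.2 TPM in its -/- library and 9.16 TPM in its +/- library, while the other -/- libraries of that age had 6.34 to 8.16 TPM and the other non-mutants 16.0 to 23.3 TPM. These 2 are called below the libraries labelled -/- and +/- of litter 13. Prdm9 transcript was present in every -/- library, and at 16 dpp it was lower there by 1.24 on the log2(TPM + 1) scale (SE 0.26, limma adjusted p = 0.00352). That call held in 20 of 21 alternative fits, the exception being +/+ as the only non-mutants. Its level does not mark the genotype at 8 dpp, where Prdm9 averaged 7.23 TPM in mutants and 4.80 TPM in non-mutants and was not called. Sertoli cell markers summed to 4704 to 7754 TPM over the 30 libraries, so the enriched cells were not pure germ cells.

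In non-mutants 6 of the 7 genes rose between 12 and 16 dpp, and in mutants at 16 dpp the same 6 were lower than in non-mutants. Adam1a, the seventh, passed neither test. Adam5 and Adam2 reached the highest mean levels, 32.9 and 30.2 TPM in non-mutants at 16 dpp, while in mutants the 6 genes had means between 0.0240 and 1.82 TPM. Both counts come from a limma fit over the 46579 rows with any value above 0, since Adam1b, Adam3 and Adam18 did not pass the filter of more than 1 TPM in at least 5 libraries. In that fit 2.16% of rows were called lower in mutants at 16 dpp and 4.94% were called higher at 16 than at 12 dpp in non-mutants (8.88% of the rows that pass the filter). A gene was called when its Benjamini-Hochberg adjusted p, taken over every row fitted, was under 0.05. Both counts rest on 1 spread taken over all ages and classes. A fit limited to the groups compared was run on filtered rows only, so Adam1b, Adam3 and Adam18 lack that check. These are bulk samples, so fewer cells of a type and less RNA per cell cannot be told apart.

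**Figure D1:**
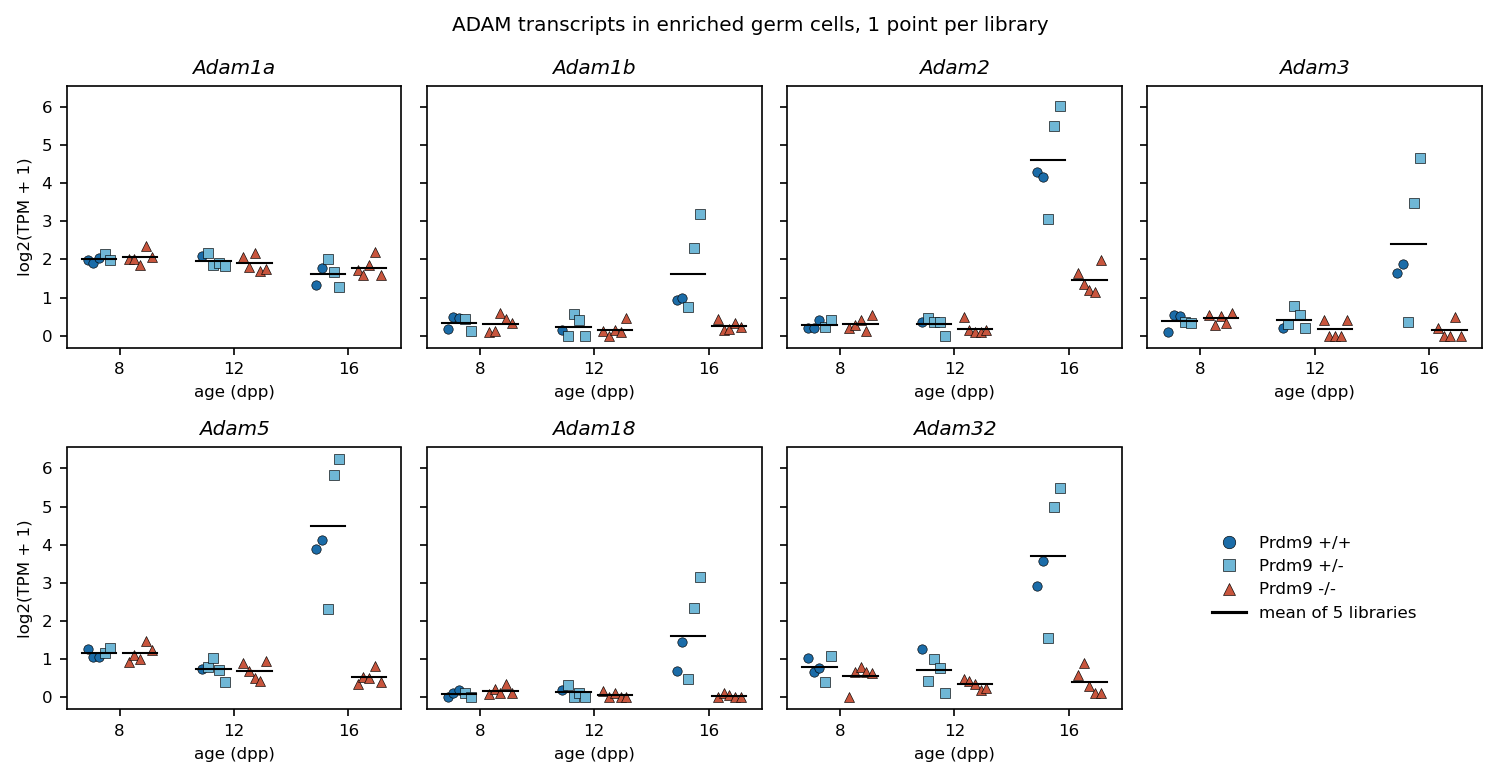
TPM of the 7 ADAM genes on the log2(TPM + 1) axis, by age, with 1 point per library and a bar at the mean of each 5 libraries; circles are +/+, squares +/- and triangles -/-. The panels of 6 genes show 16 dpp non-mutants spread widely and mostly above the other libraries, from the lowest, +/- replicate 1, to the highest, +/- replicate 3, and Adam1a stays between 1.43 and 4.08 TPM.

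Adam2 encodes fertilin beta and lies on chromosome 14 at 66027329 to 66077733 on the minus strand. At 8 and 12 dpp no library exceeded 0.46 TPM. At 16 dpp it reached 18.4 TPM in +/+ replicate 1 and 17.04 TPM in +/+ replicate 2, then 7.41, 44.0 and 64.2 TPM in +/-, and was in mutants at 2.10, 1.55, 1.29, 1.23 and 2.93 TPM. Every mutant was thus below every non-mutant, and every library of either class at 16 dpp was above every library of that class at 12 dpp. Adam2 was the sole member with that second pattern in mutants. The difference at 16 dpp was -3.15 on the log2(TPM + 1) scale (SE 0.31, limma adjusted p = 2.97e-08), and the ratio of the means was 16.6. The SE rests on 1 spread shared by all ages and classes, although the 16 dpp non-mutants spread most widely. With only the groups compared in the fit, the limma adjusted p was 0.00464. An exact two-sided permutation test over the 5 mutants and 5 non-mutants gave p = 0.00794, the smallest value that 252 splits allow. The splits did not keep litter mates paired, and any gene whose groups do not overlap gets this value.

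Adam1b encodes one of the 2 partners of ADAM2, and its ADAM1B pairing is the one found on mature sperm. It stayed at or below 0.50 TPM at 8 and 12 dpp. At 16 dpp it had 0.91 and 1.0 TPM in +/+, 0.67, 3.93 and 8.07 TPM in +/-, and 0.35, 0.10, 0.12, 0.26 and 0.17 TPM in mutants. The groups did not overlap, although 3 of the 5 non-mutants were at or below 1 TPM. The log2(TPM + 1) difference was -1.37 (SE 0.29, limma adjusted p = 0.00437), which understates the change of a gene this low, and the exact permutation p was 0.00794. Leaving out the 2 highest libraries, +/- replicates 2 and 3, a choice made after the values were seen, gave -0.63 (adjusted p = 0.00838).

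Adam1a encodes the other partner, which pairs with ADAM2 inside the cell. It had 2.78 to 3.43 TPM in non-mutants at 8 dpp and 2.57 to 3.49 TPM at 12 dpp. At 16 dpp the values were 1.51 and 2.42 TPM in +/+, 3.03, 2.18 and 1.43 TPM in +/-, and 2.30, 2.0, 2.64, 3.55 and 1.99 TPM in mutants, so the groups overlapped. The log2 difference was 0.17 (95% interval -0.12 to 0.47, limma adjusted p = 0.684). Its order among the 16 dpp non-mutants was not that of the other 6 genes: +/- replicate 1 was highest and +/- replicate 3 lowest. At 8 and 12 dpp Adam1a had the highest mean of the 7 in both classes, and in each of these groups its 5 libraries were all above those of the next gene.

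The other 4 genes form a cluster on chromosome 8 from 24602246 to 24948804, a span of 346559 bases, all on the minus strand, in the order Adam18, Adam3, Adam5 and Adam32. The annotated genes are 2469, 1240 and 11770 bases apart. Beyond Adam32, at a distance of 806 bases, lies Adam9, a widely expressed metalloprotease, and on the far side of Adam18 lies Ido1, an enzyme of tryptophan breakdown. All 4 members were lower in mutants at 16 dpp, while Adam9 was not called and Ido1 was near 0 in both classes.

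Adam5, a testis-expressed member, was the highest of the cluster. At 8 dpp it had 0.89 to 1.80 TPM and at 12 dpp 0.33 to 1.03 TPM over all libraries. At 16 dpp it had 13.8 and 16.5 TPM in +/+, 4.01, 55.7 and 74.5 TPM in +/-, and 0.27, 0.45, 0.41, 0.76 and 0.32 TPM in mutants. Every non-mutant was above every mutant, and the mutants lay within or below the 12 dpp range. The log2 difference was -3.96 (SE 0.40, limma adjusted p = 4.07e-08), and the ratio of the means was 74.4.

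Adam32, the neighbour of Adam9, followed the same order at lower levels. It had 6.5 and 10.8 TPM in +/+, 1.96, 30.6 and 44.0 TPM in +/-, and 0.49, 0.86, 0.23, 0.07 and 0.08 TPM in mutants at 16 dpp. The groups did not overlap, and +/- replicate 1 was again the lowest non-mutant. The log2 difference was -3.31 (SE 0.42, limma adjusted p = 2.5e-06), and the ratio of the means was 54.2. Adam32 was over 1 TPM in 9 libraries, and 5 of them were the 16 dpp non-mutants, without which it would not pass the filter.

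Adam3 encodes cyritestin. At 16 dpp it had 2.13 and 2.70 TPM in +/+, 0.28, 10.2 and 24.2 TPM in +/-, and 0.15, 0, 0, 0.41 and 0 TPM in mutants. Here the groups overlapped by 1 library, since +/- replicate 1 was below the highest mutant. The log2 difference was -2.27 (SE 0.44, limma adjusted p = 0.00177), and the exact permutation p was 0.0159. Without +/- replicates 2 and 3 it was -1.16 (adjusted p = 0.00357). Adam3 shares 199 exon bases with Gm45528 on the other strand.

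Adam18, also called tMDC III, had the lowest levels of the cluster. It had 0.60 and 1.71 TPM in +/+, 0.39, 4.07 and 7.85 TPM in +/-, and 0, 0.07, 0.05, 0 and 0 TPM in mutants. The groups did not overlap, but 2 of the 5 non-mutants were under 1 TPM. The log2 difference was -1.58 (SE 0.29, limma adjusted p = 0.00089), and -0.83 without +/- replicates 2 and 3 (adjusted p = 0.000158).

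**Figure D2:**
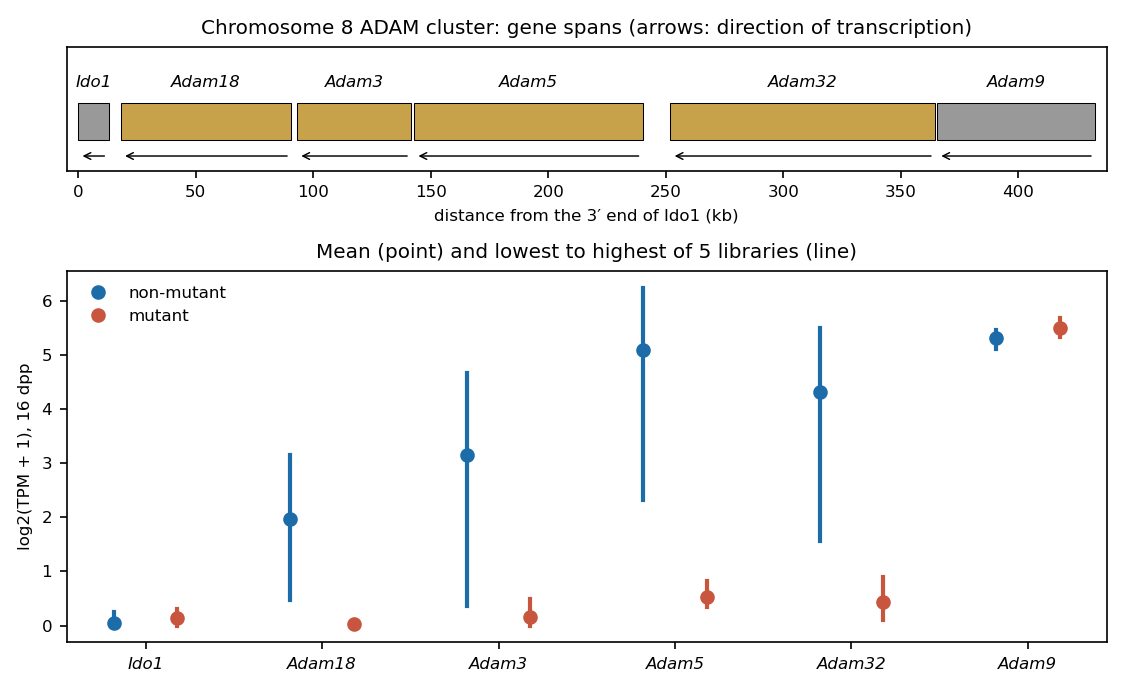
Top, spans of the annotated protein-coding genes of the chromosome 8 cluster in kb from the 3′ end of Ido1, members in ochre; bottom, log2 of the mean TPM + 1 at 16 dpp (point) with the lowest to highest of 5 libraries (line) for each class. The 4 members are low in mutants, Ido1 is near 0 in both classes, and Adam9 is at 38.4 TPM in non-mutants and 44.2 TPM in mutants.

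Adam9, which directly neighbours the cluster, had 38.4 ± 4.03 TPM in non-mutants and 44.2 ± 4.10 TPM in mutants at 16 dpp (SD, n = 5 each), and neither this difference (0.20, limma adjusted p = 0.3) nor its 12 to 16 dpp step in non-mutants (0.01, adjusted p = 0.938) was called. Ido1 did not exceed 0.23 TPM in any library at 16 dpp. On chromosome 14 the neighbours of Adam2 were Gulo, at 0.710 ± 0.266 TPM in non-mutants and 0.628 ± 0.291 TPM in mutants, and Ephx2, at 3.90 ± 0.809 and 5.32 ± 0.854 TPM. On chromosome 5 the genes that flank the Adam1 pair were Erp29, at 202 ± 8.15 and 218 ± 9.55 TPM, and Aldh2, at 251 ± 16.5 and 289 ± 22.1 TPM. The well expressed flanking genes Adam9, Erp29 and Aldh2, and Ephx2 at a lower level, had no lower mean in mutants, while Ido1 and Gulo were too near 0 to show a fall. Except for Adam9 these are values without a test.

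Of the 7 genes, 5 had every mutant below every non-mutant at 16 dpp, the exceptions being Adam1a and Adam3, against 1.63% of all rows with a value. The 5 mutants at 16 dpp each had a non-mutant litter mate. There were 6 genes lower in the mutant of all 5 litters, Adam3 included, and Adam1a was lower in 1 of 5. The share of all rows lower in all 5 litters was not counted, so this is a description. Within litters the log2 difference of Adam5 ran from -5.84 to -1.98 with a median of -3.63, that of Adam2 from -4.33 to -1.44, and that of Adam3 from -4.66 to -0.15. The smallest difference of these 3 genes was in the litter of +/- replicate 1 in each case, the library with the least pachytene marker RNA of the non-mutants.

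**Figure D3:**
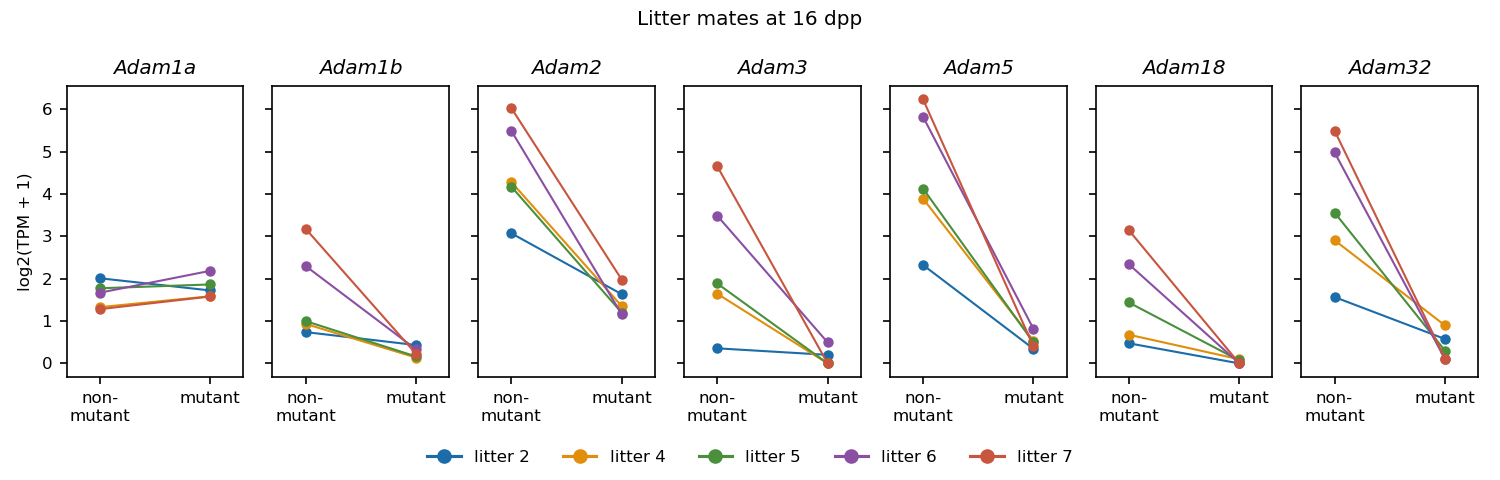
Litter mates at 16 dpp, with 1 line per litter from the non-mutant to the mutant on the log2(TPM + 1) axis, for each of the 7 genes. The lines of 6 genes fall in all 5 litters, and that of Adam1a falls in litter 2 and rises in the other litters.

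Between 12 and 16 dpp in non-mutants the log2 steps were 4.30 for Adam2 (SE 0.31), 3.75 for Adam5 (SE 0.40), 2.98 for Adam32 (SE 0.42), 1.995 for Adam3 (SE 0.44), 1.49 for Adam18 (SE 0.29) and 1.41 for Adam1b (SE 0.29). The limma adjusted p ran from 4.14e-11 for Adam2 to 0.00273 for Adam3. Every 16 dpp non-mutant was above every 12 dpp non-mutant for 5 genes, again all but Adam1a and Adam3, against 3.54% of rows. The mean of Adam5 was 48.4 times and that of Adam32 26.4 times its 12 dpp mean. Adam1a stepped by -0.36 (SE 0.14, adjusted p = 0.0749), which was not called with all libraries and was called without +/- 16 dpp replicate 1 (-0.46, adjusted p = 0.0196).

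In mutants Adam2 was the 1 gene of the 7 that rose between 12 and 16 dpp. The 12 dpp mutants had 0.40, 0.10, 0.07, 0.06 and 0.10 TPM, and the 16 dpp mutants 1.23 to 2.93 TPM, with no overlap, a pattern that 3.28% of rows had. The log2 step was 1.27 (SE 0.31, limma adjusted p = 0.00585), 6.21% of the rows that passed the filter were called higher in this comparison, and the exact permutation p was 0.00794. Without the highest library, -/- 16 dpp replicate 5, the step was 1.15 (adjusted p = 0.0252). It was called in that fit, but not with the filter removed as well.

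The other 6 genes were not called in mutants, 2.47% of rows being called higher when no filter was set. Their log2 steps were -0.17 for Adam5 (95% interval -0.98 to 0.64), 0.06 for Adam32 (-0.80 to 0.92), -0.03 for Adam3 (-0.92 to 0.87), -0.02 for Adam18 (-0.61 to 0.57), 0.10 for Adam1b (-0.49 to 0.69) and -0.11 for Adam1a (-0.41 to 0.18). Most of these intervals are wide, and a step of moderate size lies within them. Their widths come from 1 spread estimated over all 6 groups, the widely spread 16 dpp non-mutants included. They do not measure the spread of the mutants alone. Adam18 had at most 0.11 TPM in mutants at 12 dpp and 0.07 TPM at 16 dpp. A fall as large as the lower limit of its interval was therefore not possible. The step of Adam2 exceeded that of each of the other 6 by 1.17 to 1.45 on the log2(TPM + 1) scale. Adam2 was singled out after its values were seen, so these differences are a description.

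**Figure D4:**
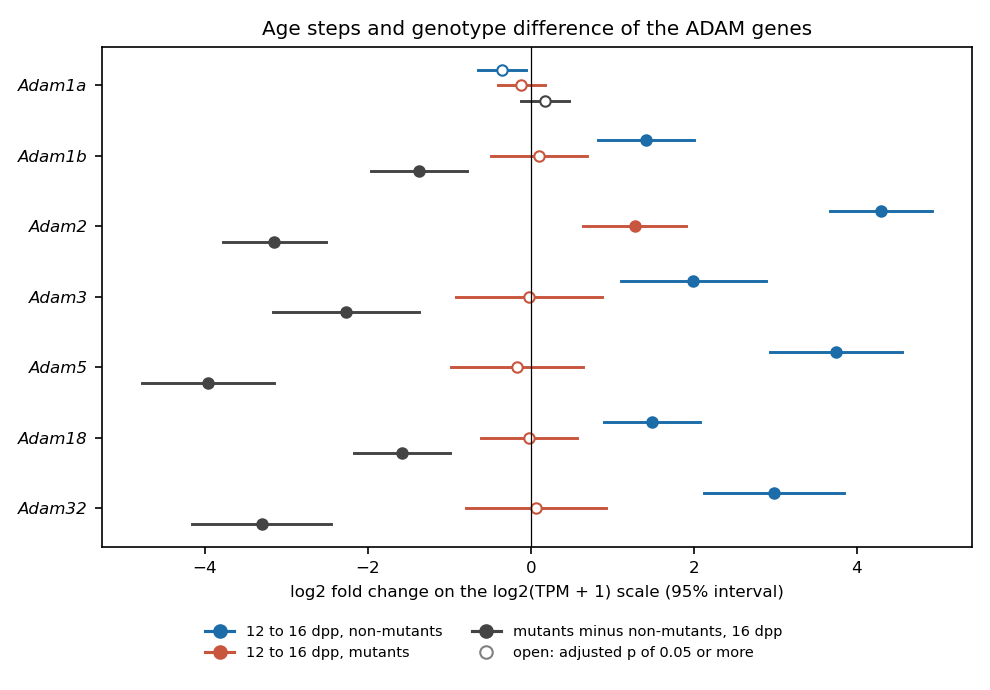
Log2 fold change with its 95% interval for each gene, for the 12 to 16 dpp step in non-mutants (blue), the same step in mutants (red) and mutants minus non-mutants at 16 dpp (black); open circles did not pass an adjusted p of 0.05. Adam2 is the gene with a filled red circle, at 1.27.

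The difference between the 2 steps was tested directly. It was -3.92 for Adam5 (SE 0.56, limma adjusted p = 6.43e-05), -3.03 for Adam2 (SE 0.44, adjusted p = 6.73e-05) and -2.93 for Adam32 (SE 0.59, adjusted p = 0.00468), against 1.26% of filtered rows called lower. Adam32 passed the filter only through the 16 dpp non-mutants, where it was high. With no filter these same 3 genes were called. Adam18 at -1.51 (adjusted p = 0.0834), Adam3 at -2.02 (0.181) and Adam1b at -1.31 (0.195) were not called in the fit with no filter, in which 0.835% of rows were. Adam18 was called with litter as a random replicate block (adjusted p = 0.022) or without +/+ 16 dpp replicate 1 (-1.74, adjusted p = 0.0146), and all 3 were called without +/- 16 dpp replicate 1, at -1.79, -2.53 and -1.53 (adjusted p = 0.00356, 0.00283 and 0.0344). Without litter 13, whose labels are in doubt, Adam32 was called among the filtered rows (-2.80, adjusted p = 0.023) but not with no filter, where Adam2 and Adam5 were the 2 members called.

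Set beside non-mutants at 12 dpp, the mutants at 16 dpp were higher in Adam2 by 1.15 (SE 0.31, limma adjusted p = 0.0137), a comparison in which 6.06% of filtered rows were called higher. Without -/- 16 dpp replicate 5 this was 1.02 (adjusted p = 0.0513). With no filter the call held with all libraries (adjusted p = 0.0359) but was lost without litter 13 and in 8 of the 10 fits that left out 1 library. No other member was called (2.39% of rows with no filter were higher), and their differences ran from -0.32 for Adam32 to 0.04 for Adam1b. This comparison shares libraries with those above.

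At the earlier ages the genotype classes were close. None of the 7 was called at 8 or 12 dpp, where 0% of the 20021 rows passed. The unadjusted limma p was under 0.05 in 417 and 225 rows, where 1001 are expected if no row differs. The fit was thus conservative at these ages, and the lack of calls says less. The differences ran from -0.24 for Adam32 to 0.10 for Adam18 at 8 dpp, and from -0.38 for Adam32 to -0.04 for Adam5 at 12 dpp, where the 95% interval of Adam32 was -1.24 to 0.48. From 8 to 12 dpp no member was called in either class, although 32.5% of rows were in non-mutants and 29.7% in mutants. The largest of these steps were those of Adam5, from 1.25 ± 0.184 to 0.680 ± 0.250 TPM in non-mutants (SD, n = 5, log2 step -0.43, adjusted p = 0.429) and from 1.24 ± 0.363 to 0.630 ± 0.256 TPM in mutants (-0.46, adjusted p = 0.416). With the fit limited to these 10 libraries the step in non-mutants was called (adjusted p = 0.0376). No member was called between heterozygotes and +/+ over the ages (0% of 18668 rows). The largest difference was 0.44 for Adam3 (95% interval -0.68 to 1.57). An unadjusted limma p under 0.05 was found in 1972 of these rows, where 933 are expected if no row differs. This fit takes 1 difference over all ages, and most members were low at 8 and 12 dpp. The difference at 16 dpp alone was not tested. There Adam5 averaged 44.7 TPM in 3 +/- and 15.2 TPM in 2 +/+ libraries, with +/- values on either side of +/+.

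The order of the genes changed with age. At 16 dpp the non-mutant means ran from Adam5 and Adam2 through Adam32 at 18.8 TPM and Adam3 at 7.92 TPM to Adam18 and Adam1b, both at 2.92 TPM, and Adam1a at 2.11 TPM. The values of every pair of neighbours in this order overlapped. Within single libraries Adam2 was above Adam32, and Adam32 above Adam3, in 5 of 5 libraries. In mutants at 16 dpp Adam1a led at 2.50 TPM, Adam2 followed at 1.82 TPM with overlapping values, and every Adam2 value was above every Adam5 value.

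In the non-mutants at 16 dpp the 6 genes ranked the +/- libraries alike. All 6 were highest in +/- replicate 3, next in +/- replicate 2 and lowest in +/- replicate 1, and Ldhc, a germ cell lactate dehydrogenase, and the pachytene marker sum did likewise. The +/+ libraries lay between, replicate 2 above replicate 1 for all but Adam2 (17.04 and 18.4 TPM). The highest library had 86.6 times the lowest for Adam3, 22.5 times for Adam32, 20.1 times for Adam18, 18.6 times for Adam5, 12.0 times for Adam1b and 8.67 times for Adam2. Summed over the 7 genes, the non-mutant level at 16 dpp ran from 17.8 to 224 TPM with a median of 52.2 TPM, and the mutant level from 4.74 to 6.28 TPM. The part of pachytene marker RNA in the differences between classes was not tested. Without the 2 highest libraries, chosen for their ADAM levels after the values were seen, all 6 genes were still called lower in mutants. In the filtered fit without them 258 of 20021 rows were called lower. Leaving them out changes the spread in the fit as well as the means, so these calls are a description.

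Among the genes that fold or mature sperm ADAMs, 13 of 19 passed the filter, 4 were lower in mutants at 16 dpp (2.75% of the 20021 filtered rows were) and none was higher. Their median difference was -0.01, and that of all rows 0.07. Clgn, calmegin, the endoplasmic reticulum chaperone that sperm ADAMs need, went from 87.7 ± 43.5 TPM in non-mutants to 19.9 ± 2.73 TPM in mutants (SD, n = 5 each, log2 difference -1.95, SE 0.27, limma adjusted p = 7.93e-06). Clgn also rose between 12 and 16 dpp in mutants, by 0.88 (adjusted p = 0.0277), as Adam2 did, and in non-mutants it rose by 2.80. Lypd4 was at 22.5 and 2.64 TPM, Cmtm2b at 14.7 and 0.0380 TPM, and Pcsk4, a convertase of the germ line, at 8.77 and 3.73 TPM in non-mutants and mutants; Cmtm2b was at 0 in 1 of the 5 non-mutants. Cmtm2a, next to Cmtm2b and a close relative whose reads could be shared with it, did not pass the filter and had 27.9 ± 29.7 and 0.134 ± 0.221 TPM.

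The other 9 tested genes of that list were not called at 16 dpp. Calr3, the germ cell calreticulin that ADAM3 needs, was at 4.72 ± 0.619 TPM in non-mutants and 5.31 ± 0.638 TPM in mutants. Tex101 and Ly6k, surface proteins that act in ADAM3 maturation, were at 760 ± 137 and 174 ± 40.3 TPM in non-mutants, and 667 ± 66.7 and 133 ± 21.04 TPM in mutants. Both rose between 12 and 16 dpp in both classes, Tex101 by 1.36 in non-mutants and 1.17 in mutants (limma adjusted p = 0.00136 and 0.00859). Pdilt, a testis protein of the disulfide isomerase family, stayed under 1 TPM on average, at 0.178 and 0.0860 TPM, and Prss37 and Prss55 were listed at 0 in every 16 dpp library.

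Of the genes for zona and cumulus interaction, 4 of 8 passed the filter, and all 4 were lower in mutants, as were 2.75% of all filtered rows. Crisp2 had 65.5 ± 59.0 and 2.58 ± 1.14 TPM (log2 difference -3.65, limma adjusted p = 8.94e-07), and Acr, the acrosomal protease acrosin, 6.83 ± 5.48 and 0.0460 ± 0.0631 TPM. Zpbp2 and Zpbp differed by -1.84 and -0.81. The 4 that did not pass were near or at 0, Spam1 and Hyal5 at 0 in every library at 16 dpp. Of 11 genes for sperm-egg fusion, 4 passed and none was called (median 0.14). Izumo1 was at 1.11 ± 0.312 and 1.37 ± 0.510 TPM, and Izumo4 at 7.02 ± 3.61 and 3.35 ± 1.34 TPM (limma adjusted p = 0.113). Genes that passed because they were high in 1 class could differ more readily, so these counts describe the lists and support no rank among them.

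Of 14 other ADAM genes of the testis, 13 were in the table and none passed the filter. Adam30 was the highest, at 1.82 ± 1.59 TPM in non-mutants and 0.386 ± 0.0590 TPM in mutants at 16 dpp, and 12 of them had means under 0.25 TPM in both classes. Of 14 somatic and epididymal ADAM genes, 12 passed and none was called, with a median of 0.25. Over all filtered rows 653 of 20021 were called in either direction, a share at which none of 12 is not unusual. Adam10 and Adam17, the sheddases of many cell types, were at 94.96 ± 8.33 and 42.4 ± 5.06 TPM in non-mutants and 104 ± 9.93 and 44.4 ± 3.30 TPM in mutants.

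**Figure D5:**
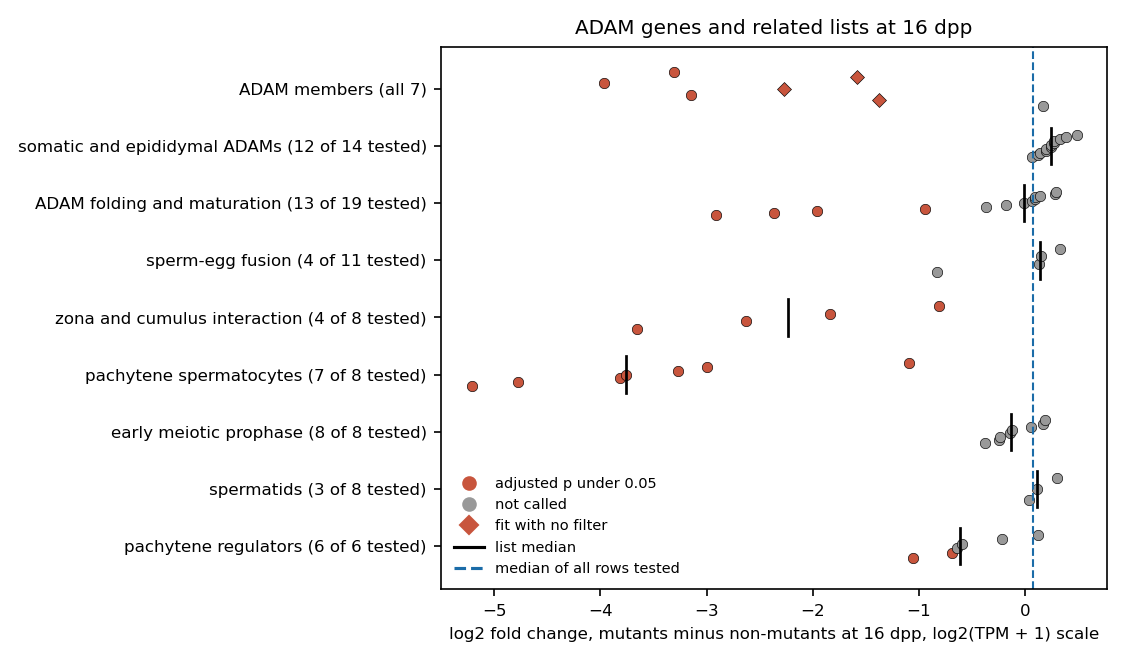
Log2 fold change of mutants minus non-mutants at 16 dpp for all 7 ADAM genes (diamonds from the fit with no filter) and for the tested genes of 8 related lists; red points were called, black bars are the medians of the related lists and the dashed line is the median of all rows tested, 0.07. Of the ADAM genes 6 lie left of -1, and the 12 somatic and epididymal ADAM genes lie between 0.07 and 0.49.

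Markers of cell stages moved beside the ADAM genes. Of the 8 pachytene markers 7 passed the filter and all 7 were lower in mutants at 16 dpp (median -3.76, with 2.75% of filtered rows called lower), while none of the 8 early prophase markers was called (median -0.13). Of 8 spermatid markers 3 passed the filter (Tnp1, Spaca1 and Tssk6) and none was called at 16 dpp, where the list summed to 7.33 to 10.2 TPM in non-mutants and 6.58 to 13.2 TPM in mutants. Most of that sum was Spaca1, at 6.21 ± 1.08 and 6.56 ± 2.02 TPM, which rose from 12 to 16 dpp in both classes (0.88 and 0.85, limma adjusted p = 0.00157 and 0.00391). The protamine genes of late spermatids were near the floor: Prm2 was at 0 in every 16 dpp library and Prm1 averaged 0 and 0.0760 TPM. Of 4 germ cell markers Ddx4 was lower in mutants (-0.61, adjusted p = 0.0276) and Mael, at -0.45, was not called (adjusted p = 0.131). Sertoli markers had none of 8 called and summed to 5947 to 6467 TPM in non-mutants and 5963 to 7051 TPM in mutants. None of 5 Leydig markers was called (median 0.69), with sums of 93.5 to 353 TPM and 155 to 468 TPM, and none of 4 macrophage markers (median 0.46). Since 653 of 20021 filtered rows were called in either direction, lists this short with none called are not unusual. The part of these markers in the ADAM differences was not tested.

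Of 6 transcription factors of the pachytene program, Rfx2 (-1.06, limma adjusted p = 0.0126) and Tcfl5 (-0.69, adjusted p = 0.0331) were lower in mutants at 16 dpp, as were 2.75% of filtered rows. The others, Mybl1, Rfx3, Sox30 and Crem, were not called. The 5 named genes whose levels followed the mean of Adam1a, Adam2, Adam5 and Adam32 most closely over the 30 libraries, among 13834 ranked, were Mroh2b (Pearson r = 0.991), Fam170a (0.989), Mgat4d (0.985), Tmbim7 (0.985) and Fbp1 (0.985). All 30 libraries enter this r with their group differences, and it is given as a description. Fbp1, a gluconeogenic enzyme, was at 32.5 ± 31.3 TPM in non-mutants and 0.116 ± 0.122 TPM in mutants at 16 dpp, and Mroh2b at 12.7 ± 11.2 and 0.138 ± 0.0610 TPM.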

How the data were processed

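Per the submitters' processing notes, which give no role or order, Bowtie 1.0.0, RSEM 1.2.8 and mm10 (GRCm38) were used; strandedness and the annotation release are not given in the sources used here. The authors deposited TPM per gene to 2 decimals. The table ends at 65536 lines, and 3.23 to 3.95% of each library's TPM lies outside it. Sequencing depth cannot be read from TPM, hence no counting interval; the number of libraries limits the precision. Symbols came from GENCODE M21, which named 37709 of 38906 Ensembl rows. Libraries were grouped by the labels; the table's header gives 14 litters and numbers each animal.

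Limma-trend (limma 3.58.1, R 4.3.3) was fitted to log2(TPM + 1) over 6 groups of 5, on 20021 rows over 1 TPM in at least 5 libraries, and on 46579 rows with no filter for Adam1b, Adam3 and Adam18. Fold changes on this scale understate changes of low genes. Genes were called at a Benjamini-Hochberg adjusted p under 0.05. The fit was tested on simulated data. Heterozygotes were compared with +/+ with age as a factor. Exact permutation tests were two-sided and split the libraries without regard to litter. Litter mates deviated together: over 17 pairs the correlation of deviations ran from 0.0628 to 0.390 (median 0.220), against a median of -0.0836 between litters. Alternatives were the pseudocount (0.1), filters, scalings, litter blocks, control genotype and left-out libraries.

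Members and lists were chosen with earlier results of these data known. Named genes are the 7 members, Prdm9, up to 5 called genes a list, markers near 0, the genes that flank the loci and the 5 most alike in level; list members with a known role for ADAM proteins were named in addition, after their values were seen.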

Additional observations from a re-analysis of the deposited data

Results flagged for a closer look

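The 12 to 16 dpp step differed between mutants and non-mutants, by a test of that difference in the limma fit, for Adam2 (-3.03), Adam5 (-3.92) and Adam32 (-2.93, or -2.925 unrounded). In 4 of 42 groups of 5 libraries 1 library stood apart from the rest by Dixon's test, which flags about 1 group in 20 by chance. Adam1b was at 0.37 TPM in the library labelled -/- of litter 13 at 12 dpp, where the next was at 0.10 TPM. Adam2 was at 0 TPM in the library labelled +/- of that litter, where the next was at 0.28 TPM, and at 0.40 TPM in -/- 12 dpp replicate 1, where the next was at 0.10 TPM. Adam32 was at 0 TPM in -/- 8 dpp replicate 1, where the next was at 0.56 TPM. All 4 values are under 1 TPM.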

How the results depend on the processing

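With the filter on low values 3 members were called at 16 dpp and 3 in the 12 to 16 dpp step of non-mutants, and with no filter 6 in each, because 3 of the 7 genes fail the filter. With only the groups compared, 1 member was called from 8 to 12 dpp in non-mutants, where the fit over all libraries called 0. With 1 library left out the mutants at 16 dpp against non-mutants at 12 dpp gave 0 or 1 called member. With litter as a fixed replicate block 3 members were called at 16 dpp, as without it, while over all filtered rows the count went from 653 to 1037 (370 higher, 667 lower) and, with litter as a random replicate block, to 1103. The block changed no other member's call than that of Adam18 for the difference of steps. At 16 dpp the log2 difference of Adam2 ran from -3.67 to -2.38, that of Adam5 from -5.33 to -2.93 and that of Adam32 from -5.01 to -2.28, called in 21 of 21 alternatives each. Their highest limma adjusted p came with only the groups compared, at 0.00464, 0.00517 and 0.0171 in that order. Adam1b, Adam3 and Adam18 were not fitted in that way. Uncalled steps in mutants changed sign: Adam3 to 0.0366 without litter 13 or without 1 library (as in the highest left-out value, lowest -0.114), Adam18 to 0.0058 (lowest -0.0347) and Adam32 to -0.0656 (highest 0.134). For mutants at 16 dpp against non-mutants at 12 dpp Adam1b changed to -0.0196 without litter 13 or without 1 library (highest 0.124). The cause of these sign changes was not tested. The filtered rows called at 16 dpp fell from 653 to 347 with only the groups compared, to 297 with +/+ as the only non-mutants, to 301 without +/- replicates 2 and 3 and to 433 without +/- replicate 3, and rose to 1181 with no filter. Median-ratio scaling moved the split from 102 higher and 551 lower to 60 and 716.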
